A study of Homo sapiens with 6 samples.

Results

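The genes described here are 9 genes of the insulin and insulin-like growth factor (IGF) pathway: the receptors INSR, IGF1R and IGF2R, the insulin receptor substrates IRS1, IRS2 and IRS4, the receptor-binding adaptors GRB10 and GRB14, and the adaptor SHC1. They were taken by gene symbol, and all 9 were found among the 23569 genes of the expression table. RNA was sequenced from TFK1, a human cell line derived from an extrahepatic bile duct carcinoma (cholangiocarcinoma), in 6 libraries. The 3 libraries called oeNC came from cells that carried a lentiviral negative control, and the 3 called oeSTUB1 from cells that overexpressed STUB1, an E3 ubiquitin ligase that also serves as a co-chaperone. Both were stable lines, made with virus packaged in HEK293T cells and selected with puromycin, and neither received a further treatment. The study sought genes whose expression depended on STUB1 through UHRF1 and DNMT1, proteins that maintain DNA methylation. The study's methods state in general that experiments were independent repeats, but do not say for these libraries whether they came from separate cultures, so the p-values measure the spread between these libraries, which may be technical. The number of transduced lines per group is not stated either. An effect of STUB1 and a difference between the lines therefore cannot be told apart.

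Insulin and the IGFs bind receptor tyrosine kinases at the cell surface. The activated receptor phosphorylates IRS proteins, which recruit PI3K and so lead to AKT and mTOR, and SHC proteins, which connect through GRB2 and SOS to RAS and ERK. IGF2R has no kinase domain: it is the cation-independent mannose 6-phosphate receptor, which carries lysosomal enzymes and takes up IGF2 for degradation. GRB10 and GRB14 bind the active insulin receptor and dampen its signal. INSR and IGF1R are expressed by bile duct carcinoma cells as by most epithelial cells, whereas IRS4 has a narrow range of expression that includes the embryonic kidney line HEK293.

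Of these genes, INSR alone passed the test across all 6 libraries. INSR mRNA was lower in every oeSTUB1 library than in every oeNC library and fell by 41.8%, a call close to its threshold. IGF1R and GRB14 also lay lower and SHC1 higher in all oeSTUB1 libraries, without passing the test. The 1 call was 12.5% of the 8 tested genes, where 13.6% of all tested genes passed. With INSR, 4 of the 8 (50%) had groups that did not overlap, against 38.8% of all tested genes. IGF2R, IRS1, IRS2 and GRB10 overlapped between the groups. IRS4 was close to 0 in 5 libraries and had 76 fragments in the library of oeSTUB1 replicate 1.

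Because the study asks about promoter methylation, the 250 bases before the first listed start are shown for INSR, the gene that passed, for IGF1R, its closest relative, and for IRS4, the gene seen in 1 library. They are from RefSeq on GRCh38.p14, 5′ to 3′ on the strand of the gene, with each CG pair, the site at which DNA methylation is mostly found in human cells, in capitals. INSR is chr19:7294415-7294664 on the minus strand, IGF1R is chr15:98648289-98648538 on the plus strand, and IRS4 is chrX:108736564-108736813 on the minus strand.
INSR: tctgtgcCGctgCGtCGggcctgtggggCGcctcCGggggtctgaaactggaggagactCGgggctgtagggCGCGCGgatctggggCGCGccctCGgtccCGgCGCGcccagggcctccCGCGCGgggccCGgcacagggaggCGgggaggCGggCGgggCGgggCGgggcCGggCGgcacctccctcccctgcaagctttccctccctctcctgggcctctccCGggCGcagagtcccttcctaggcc
IGF1R: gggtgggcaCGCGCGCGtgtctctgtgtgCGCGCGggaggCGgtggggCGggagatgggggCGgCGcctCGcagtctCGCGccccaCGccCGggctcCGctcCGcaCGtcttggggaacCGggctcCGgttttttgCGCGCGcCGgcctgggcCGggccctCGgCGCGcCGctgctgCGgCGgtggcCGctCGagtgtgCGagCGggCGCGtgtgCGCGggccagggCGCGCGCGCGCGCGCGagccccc
IRS4: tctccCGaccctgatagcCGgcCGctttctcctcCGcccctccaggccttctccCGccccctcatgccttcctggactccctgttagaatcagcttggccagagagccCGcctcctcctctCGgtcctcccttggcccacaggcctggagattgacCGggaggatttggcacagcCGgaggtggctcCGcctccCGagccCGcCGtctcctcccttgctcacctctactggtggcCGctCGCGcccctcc
The IGF1R promoter held 48 CG pairs, a number reached by 0.262% of the 35116 promoters in the table. The INSR promoter held 28 (reached by 15.9%) and the IRS4 promoter shown 16 (reached by 41%), where the median promoter held 11. The other listed start of IRS4 had 23 CG pairs (reached by 25.8%). The motif was CG, which reads the same on both strands. All 9 genes had a promoter in the table, 16 in all with alternative starts. The first listed starts of IRS1 and IRS2 held 39 and 42 CG pairs and those of IGF2R, GRB10, GRB14 and SHC1 held 33, 37, 33 and 16. Promoter methylation was not measured in the values used here, so the counts describe the sequence alone.

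Expression is given as FPKM, fragments scaled to gene length and library total. Comparisons between genes rest on the lengths used, which follow a gene model not given in the sources used here. Whole fragments recovered from these values gave library totals between 33106564 and 36744521, with similar depth in both groups. STUB1 was 32.9, 33.0 and 30.9 FPKM in oeNC replicates 1, 2 and 3 and 61.4, 75 and 61.9 FPKM in oeSTUB1 replicates 1, 2 and 3. All oeSTUB1 libraries therefore matched their label, and STUB1 rose by 1.03 on the log2 scale (limma, adjusted p = 0.000642). The summed FPKM of biliary epithelial markers ran from 7431 to 8008 in oeNC and from 4733 to 6272 in oeSTUB1, with KRT7 at 482 to 872 FPKM over the 6 libraries. Of the 8 such markers tested, 5 fell and 1 rose, and KRT19 was low in all libraries (0.374 to 0.529 FPKM in oeNC, 2.51 to 3.41 in oeSTUB1). Endothelial markers summed to at most 0.231 FPKM and fibroblast markers to at most 3.92 FPKM in any library. Hepatocyte markers summed to 93.6 to 99.4 FPKM in oeNC and 32.7 to 51.8 in oeSTUB1, nearly all of it CPS1, with 4 of the 6 under 0.1 FPKM in all libraries. The leukocyte list summed to 28.0 to 28.6 and 20.5 to 21.4 FPKM, mostly CD68. In bulk RNA, fewer cells that express a gene and less RNA per cell cannot be told apart, and the part of these shifts in the results was not tested.

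The library of oeSTUB1 replicate 2 stood apart from the others. Counts of replicates 1 and 3 of oeSTUB1 differed with a chi-square of 9.44 per degree of freedom, within the 3.37 to 9.82 seen among oeNC libraries, whereas replicate 2 differed from them by 76.7 and 71.1. Its difference followed gene length. Relative to the other oeSTUB1 libraries, genes under 1000 bases were higher by a median of 0.36 on the log2 scale, and the 2240 tested genes of 8000 bases and more had a median of -0.42. This touches INSR, IGF1R, IGF2R, IRS1, IRS2 and GRB10, which are 8156 to 14061 bases long by the length recovered from the FPKM values, and much less GRB14 and SHC1, at 3621 and 4114 bases. The differences of the tested genes described here are therefore also shown without that library, whereas those of other pathway genes are mostly given with it. Results are also given after each library's values were corrected for gene length, a choice made after the pattern was seen.

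**Figure D1:**
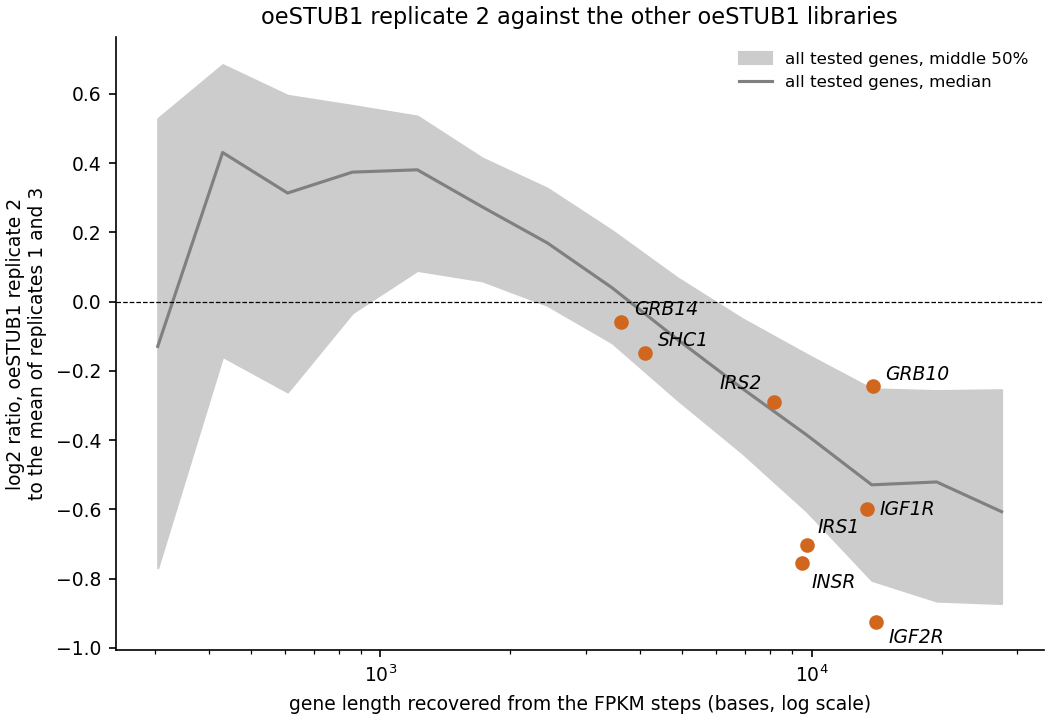
The log2 ratio of oeSTUB1 replicate 2 to the mean of oeSTUB1 replicates 1 and 3 (vertical axis) against gene length in bases (horizontal axis, log scale), with the median (line) and middle 50% of values (band) of the tested genes in length bins of at least 20 genes. The 8 tested insulin and IGF pathway genes are orange points, from -0.93 for IGF2R to -0.06 for GRB14.

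INSR encodes the insulin receptor and is found on chromosome 19, minus strand, at 7112255 to 7294034 (GRCh38, GENCODE 29, protein coding, ENSG00000171105), as the other genes here are placed by the same annotation. The oeNC libraries held 2.73, 2.87 and 3.32 FPKM and the oeSTUB1 libraries 2.07, 1.16 and 1.97 FPKM, in the order of replicates 1, 2 and 3. Every oeSTUB1 value lay below every oeNC value, and replicate 2 was the lowest. The underlying fragments numbered 898, 941 and 1156 in oeNC and 675, 363 and 639 in oeSTUB1. Means were 2.97 ± 0.309 and 1.73 ± 0.501 FPKM (SD, n = 3 each). On the log2 scale the difference was -0.78, with a 95% confidence interval from -1.28 to -0.29 (adjusted p = 0.0498, limma). Without oeSTUB1 replicate 2 the log2 fold change was -0.53 (adjusted p = 0.0124, limma), and with the correction for gene length it was -0.70 (adjusted p = 0.00822, limma). Leaving out any other library lost the call, while the direction could not turn because the groups did not overlap. Values were then -0.84 without oeNC replicate 1, -0.80 without oeNC replicate 2, -0.70 without oeNC replicate 3, -0.92 without oeSTUB1 replicate 1 and -0.89 without oeSTUB1 replicate 3, with adjusted p-values from 0.0526 to 0.166 (limma).

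IGF1R encodes the type 1 IGF receptor, the receptor kinase closest to INSR, and lies on chromosome 15 from 98648539 to 98964530 on the plus strand. Its mRNA was 31.9, 31.7 and 30.9 FPKM in the oeNC libraries and 28.8, 18.1 and 26.1 FPKM in the oeSTUB1 libraries. The groups did not overlap, although replicate 2 was far below the other oeSTUB1 libraries. Means were 31.5 ± 0.548 and 24.3 ± 5.58 FPKM (SD, n = 3 each), and the log2 fold change of -0.40 (95% confidence interval -0.77 to -0.03) did not pass the test (adjusted p = 0.143, limma). The call was reached without oeSTUB1 replicate 2 (log2 fold change -0.20, adjusted p = 0.0363, limma) and with the correction for gene length (-0.28, adjusted p = 0.0164, limma). The large SD in oeSTUB1 thus came from the library whose long genes were low. IRAIN, a non-coding RNA of the IGF1R locus, was at 0.155 to 0.380 FPKM in all libraries, and whether the counting used strand is not given in the sources used here.

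IGF2R lies on chromosome 6 from 159969099 to 160113507 on the plus strand. Its level was 14.7, 14.9 and 15.3 FPKM in oeNC and 14.9, 8.09 and 16.1 FPKM in oeSTUB1. Replicate 1 of oeSTUB1 lay within the oeNC values, replicate 3 above them and replicate 2 far below them, so the groups overlapped. The log2 fold change of -0.26 (95% confidence interval -0.80 to 0.28, adjusted p = 0.497, limma) became 0.05 without that library (adjusted p = 0.572, limma). No difference in IGF2R was therefore detectable beyond the spread of the libraries, and its direction rested on 1 library.

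**Figure D2:**
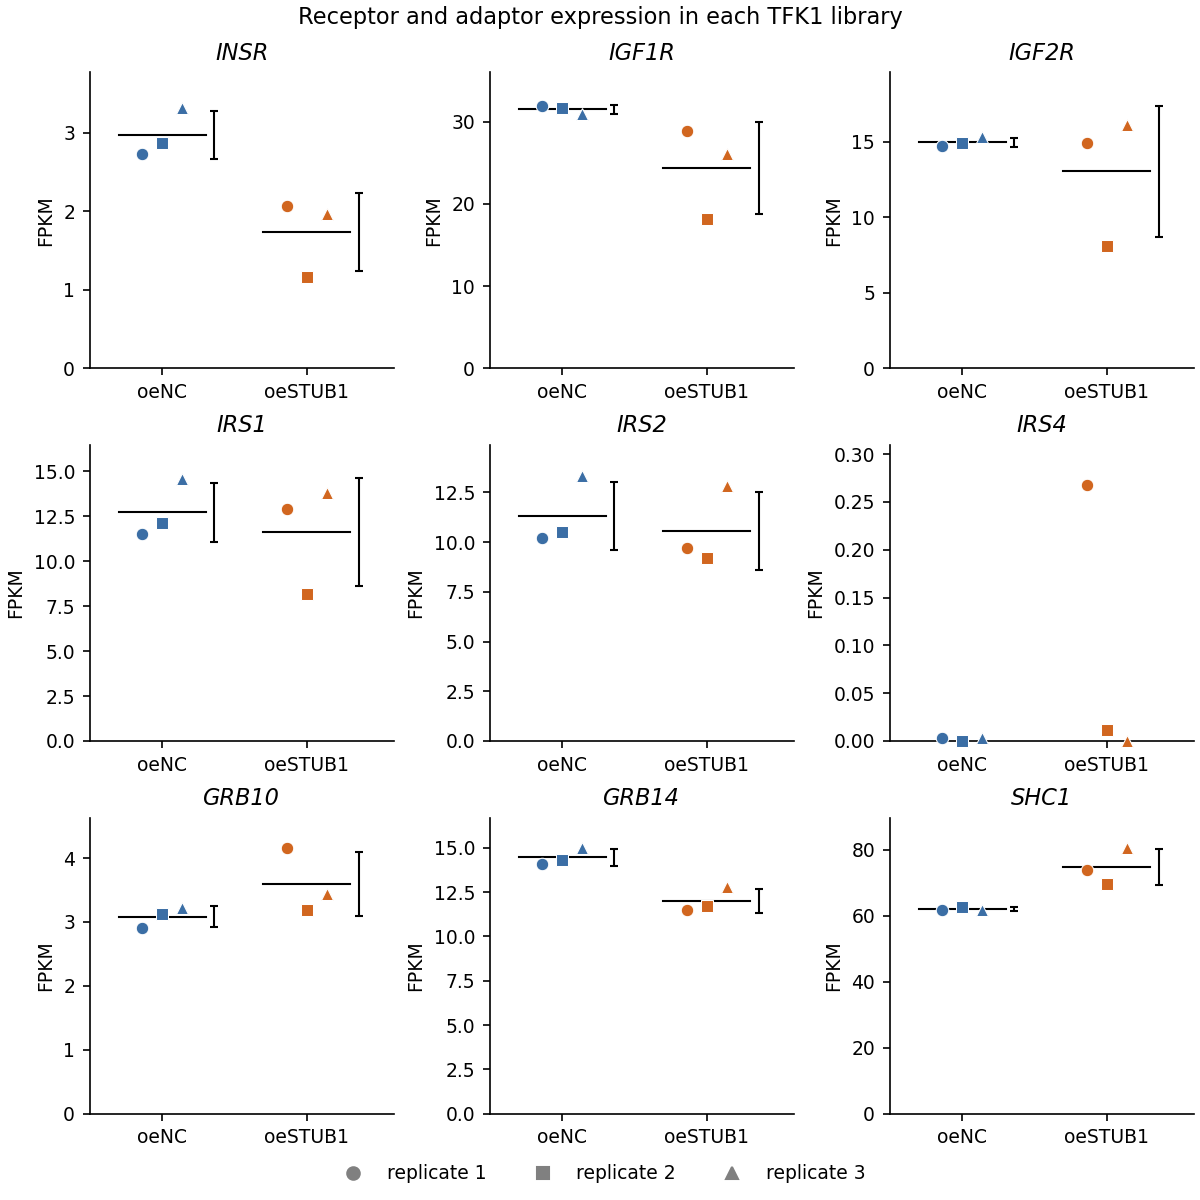
FPKM of each gene (vertical axes, each starting at 0) in the oeNC (blue) and oeSTUB1 (orange) libraries, with replicates 1, 2 and 3 as circles, squares and triangles, the group mean as a line and its SD as a bar (n = 3). INSR, IGF1R and GRB14 were lower and SHC1 was higher in every oeSTUB1 library, and IRS4, which is drawn with no mean, reached 0.268 FPKM in oeSTUB1 replicate 1.

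IRS1 and IRS2 encode the main docking proteins of both receptor kinases. IRS1, on chromosome 2 from 226731317 to 226799759 on the minus strand, was 11.5, 12.1 and 14.6 FPKM in oeNC and 12.9, 8.17 and 13.8 FPKM in oeSTUB1. IRS2, on chromosome 13 from 109752698 to 109786568 on the minus strand, was 10.2, 10.5 and 13.3 FPKM in oeNC and 9.71, 9.20 and 12.8 FPKM in oeSTUB1. Both overlapped between the groups, and replicate 3 was the highest library of each group for both genes. For IRS1 the log2 fold change was -0.16 (95% confidence interval -0.62 to 0.30, adjusted p = 0.638, limma). That of IRS2 was -0.10 (95% confidence interval -0.46 to 0.25, adjusted p = 0.699, limma). The sign of IRS1 turned without oeSTUB1 replicate 2, to 0.08 (adjusted p = 0.617, limma), and that of IRS2 turned without oeNC replicate 3, to 0.02 (adjusted p = 0.96, limma). The intervals allow an IRS1 level between 0.653 and 1.23 times and an IRS2 level between 0.728 and 1.19 times that of oeNC cells.

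IRS4, on the minus strand of chromosome X at 108732482 to 108736409, was read library by library, since its fragments were spread unevenly over them. It had 1, 0 and 1 fragments in oeNC replicates 1, 2 and 3 and 76, 3 and 0 fragments in oeSTUB1 replicates 1, 2 and 3. A single library therefore held 93.8% of its fragments, and the other oeSTUB1 libraries looked like oeNC. The 76 fragments correspond to 0.268 FPKM, with an exact Poisson 95% interval from 59.9 to 95.1 fragments, and the 3 fragments of oeSTUB1 replicate 2 to 0.011 FPKM, with an interval from 0.619 to 8.77 fragments. On the same basis a count of 0 has an upper bound of 3.69 fragments. The one-sided limit of 3 fragments for a count of 0 equals 0.0107 FPKM in oeSTUB1 replicate 3 and 0.0105 FPKM in oeNC replicate 2. These intervals cover counting error only. Even in oeSTUB1 replicate 1, IRS4 made up 1.17% of the summed FPKM of IRS1, IRS2 and IRS4. With a mean of 0.0476 FPKM the gene lay under the minimum of 0.1 FPKM for testing, so no group mean is compared. The recovered length of IRS4 was 8239 bases, longer than its span of 3928 bases in GENCODE 29, so the authors' gene model reached beyond it. In GENCODE 29 a further gene shares 356 exon bases with IRS4 on the opposite strand, and another shares 109 on the same strand.

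To set this pattern beside other genes, a rule was made with the IRS4 pattern known, so IRS4 met it in advance. Genes well expressed in all libraries could not meet it. With at least 20 fragments in 1 library and at least 90% of all fragments there, 2 of the 23569 genes qualified, IRS4 and XIST, the non-coding RNA that silences an X chromosome, both in oeSTUB1 replicate 1. The number was also 2 with at least 10 fragments, and with a share of at least 80%. With a share of at least 50%, a value added after the data were seen, 25 genes qualified, 8 of them in oeSTUB1 replicate 1, 8 in oeNC replicate 3 and up to 5 in each other library. HEK293 cells, a relative of the line in which the virus was packaged, express IRS4, so 7 marker genes of that line were summed. The sum was 442 FPKM in oeSTUB1 replicate 1, the lowest of the 6 libraries, against 449 to 603 FPKM in the others. UCHL1 gave 423 of the 442 FPKM and is expressed in all 6 libraries, so the sum cannot show a small share of such cells. Of the markers at lower levels, INA (9.54 FPKM, against 6.95 to 8.90) and NEFM (0.0486 FPKM, against 0.00804 to 0.0245) were highest in oeSTUB1 replicate 1, while LIN28B, NEFL, GAL, PAX2 and UCHL1 were not. For INA oeSTUB1 replicates 2 and 3 were close, at 8.75 and 8.90 FPKM. The NEFM value rested on 6 fragments, against 1, 2 and 3 in oeNC and 2 and 3 in oeSTUB1 replicates 2 and 3. The part of such cells in the IRS4 fragments was not tested.

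GRB10 and GRB14 encode related adaptors that inhibit the insulin receptor. GRB10, on chromosome 7 from 50590063 to 50793462 on the minus strand, was 2.90, 3.13 and 3.22 FPKM in oeNC and 4.15, 3.19 and 3.44 FPKM in oeSTUB1. Replicate 1 of oeSTUB1 was the highest, replicate 3 lay above the oeNC values and replicate 2 lay within them. GRB10 had a log2 fold change of 0.21 (95% confidence interval -0.08 to 0.49, adjusted p = 0.306, limma), and adjusted p-values over the alternatives ran from 0.0726 to 0.589. It did not pass without oeSTUB1 replicate 2 (0.29, adjusted p = 0.0831, limma) or with the correction for gene length (0.33, adjusted p = 0.0726, limma). GRB14, on chromosome 2 from 164492812 to 164621848 on the minus strand, was 14.1, 14.3 and 15 FPKM in oeNC and 11.5, 11.7 and 12.8 FPKM in oeSTUB1. Its groups did not overlap, and its oeSTUB1 replicate 2 lay between the other replicates. It differed by -0.27 on the log2 scale (95% confidence interval -0.46 to -0.09, adjusted p = 0.0631, limma). The value was -0.25 when oeSTUB1 replicate 2 was left out (adjusted p = 0.0269, limma), with the correction for gene length -0.30 (adjusted p = 0.0152, limma), and with quantile normalization -0.30 (adjusted p = 0.0346, limma). GRB14 shares its chromosome with many genes that were lower: on chromosome 2, which also carries IRS1, 797 of 1031 tested genes (77.3%) had a log2 fold change under 0, with a median of -0.21. The medians of the other chromosomes that carry tested genes described here lay between 0.01 and 0.05. The part of the chromosome in the GRB14 value was not tested.

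SHC1 encodes the adaptor that links the receptors to RAS, in forms that start from different promoters or codons. It lies on chromosome 1 from 154962298 to 154974395 on the minus strand and was the most highly expressed of these genes. Its level was 61.7, 62.7 and 61.9 FPKM in oeNC and 74.0, 69.8 and 80.7 FPKM in oeSTUB1. The oeNC libraries lay close together, and the lowest oeSTUB1 library, replicate 2, was above all of them. Means were 62.1 ± 0.566 and 74.8 ± 5.46 FPKM (SD, n = 3 each), a log2 fold change of 0.27 (95% confidence interval 0.08 to 0.45) that did not pass the test (adjusted p = 0.0641, limma). It passed without oeSTUB1 replicate 2 (0.31, adjusted p = 0.00416, limma) and with the correction for gene length (0.25, adjusted p = 0.0231, limma). PYGO2, which shares 335 exon bases with SHC1 on the same strand in GENCODE 29, was at 11.1 to 13.5 FPKM in oeNC and 12.3 to 14 FPKM in oeSTUB1, so fragments of the shared bases may have been counted to either gene or to neither.

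Counted together, 8 of the 9 genes passed the filter on low values. One of the 8 tested genes, or 12.5%, passed at an adjusted p of 0.05, where 13.6% of all 15353 tested genes did and 6.59% fell. None passed an absolute log2 fold change over 1 besides, a criterion met by 5.2% of all genes. In limma the unadjusted p-value was under 0.05 for 4 of the 8, or 50%, against 29.7% of all genes. The same 4 genes, INSR, IGF1R, GRB14 and SHC1, had groups that did not overlap (50%, against 38.8% of all genes). Without oeSTUB1 replicate 2 these 4 genes passed the test, when 26.8% of all genes did, and with the correction for gene length they passed when 21.6% of all genes did. The median log2 fold change of the 8 genes was -0.21, against 0.02 for all tested genes. Without oeSTUB1 replicate 2 the values ran from -0.53 for INSR to 0.31 for SHC1. IGF2R, IRS1 and IRS2 were then at 0.05, 0.08 and -0.01, so the lower median was not seen without that library. With the correction for gene length, which keeps that library, these genes were at -0.14, -0.07 and -0.04. Most of the 8 genes are long, and tested genes of 8000 bases and more had a median of -0.08, or 0.06 without oeSTUB1 replicate 2.

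**Figure D3:**
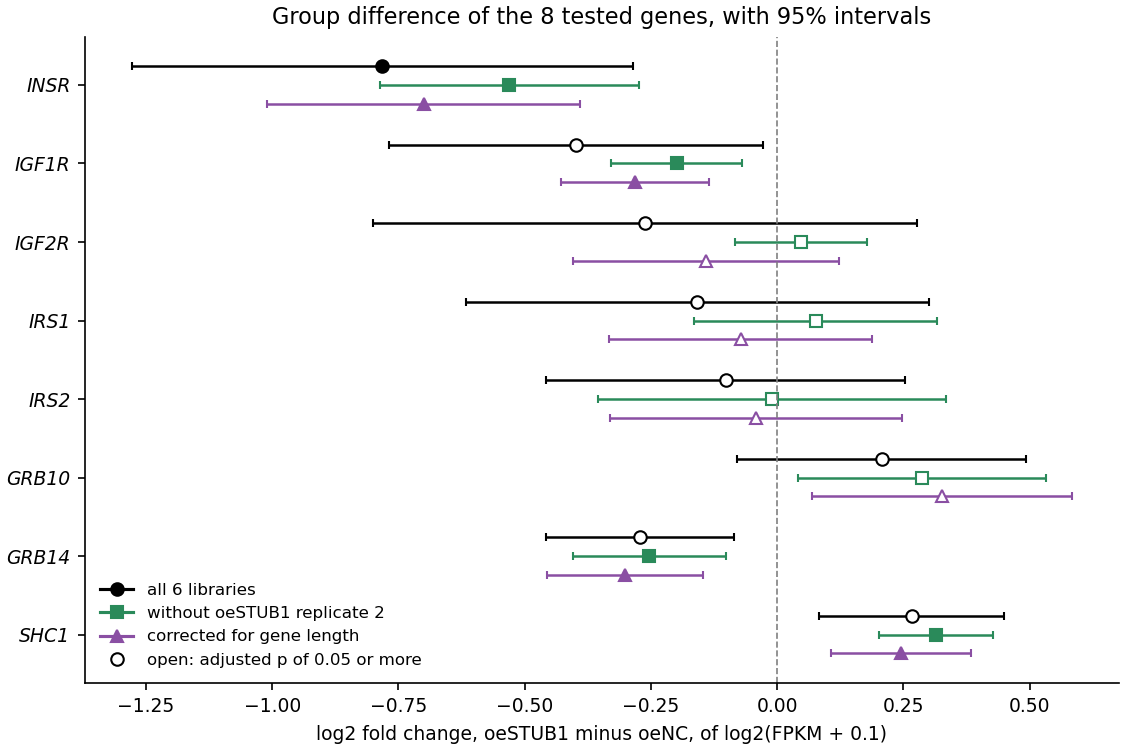
The log2 fold change of the 8 tested genes (horizontal axis, oeSTUB1 minus oeNC on the log2(FPKM + 0.1) scale) with 95% confidence intervals from limma, for all 6 libraries, without oeSTUB1 replicate 2, and with the correction for gene length. Filled symbols had an adjusted p-value under 0.05, which held for INSR alone with all 6 libraries and for INSR, IGF1R, GRB14 and SHC1 in the other fits.

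The genes also differed in level among themselves. Mean expression over the 6 libraries was 68.5 FPKM for SHC1, 27.9 for IGF1R, 14 for IGF2R, 13.2 for GRB14, 12.2 for IRS1, 10.9 for IRS2, 3.34 for GRB10 and 2.35 for INSR. The order of SHC1, IGF1R and IGF2R held in all 6 libraries with no overlap of their ranges, and so did IRS2 above GRB10 and INSR above IRS4. The ranges of IGF2R and GRB14, of GRB14 and IRS1, of IRS1 and IRS2, and of GRB10 and INSR overlapped over the 6 libraries, so their order did not hold beyond the spread of all libraries. Within oeNC the first 3 of these pairs kept their order in all 3 libraries, and within oeSTUB1 GRB10 was above INSR in all 3, at 3.19 to 4.15 against 1.16 to 2.07 FPKM.

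Among the receptor kinases IGF1R prevailed by a wide margin. Its FPKM was 11.7, 11.1 and 9.29 times that of INSR in oeNC and 13.9, 15.6 and 13.2 times in oeSTUB1. The ratio was 10.7 ± 1.24 and 14.3 ± 1.25 (SD, n = 3 each), and the groups did not overlap (p = 0.1 in a two-sided exact permutation test, which cannot give less with 3 libraries a group). Without oeSTUB1 replicate 2 the mean in oeSTUB1 was 13.6. The ratio of GRB14 to GRB10 was 4.87, 4.56 and 4.67 in oeNC and 2.77, 3.66 and 3.71 in oeSTUB1, again without overlap (exact permutation test, p = 0.1). Its mean in oeSTUB1 was 3.24 without oeSTUB1 replicate 2, whose long genes, such as GRB10, were low. In contrast, the ratio of IRS1 to IRS2 was 1.13, 1.15 and 1.1 in oeNC and 1.33, 0.889 and 1.08 in oeSTUB1, so oeNC lay inside the oeSTUB1 range (exact permutation test, p = 0.7). Of the remaining ratios, SHC1 to IRS1 and GRB14 to INSR were higher in every oeSTUB1 library, and IGF2R to IGF1R overlapped. These ratios were computed after the data were seen, with 6 ratios in all, none of which could reach a p-value of 0.05 in this design.

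**Figure D4:**
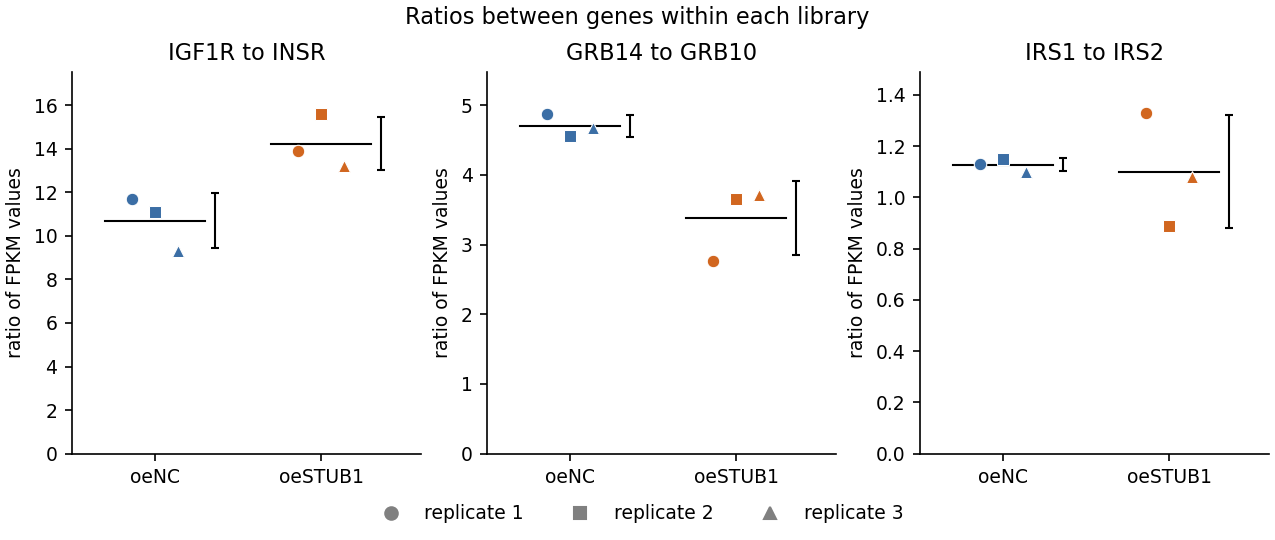
Ratios of FPKM values between genes of the same library (vertical axes, starting at 0) in oeNC (blue) and oeSTUB1 (orange), with replicates as circles, squares and triangles, the mean as a line and the SD as a bar (n = 3). The IGF1R to INSR ratio was higher and the GRB14 to GRB10 ratio lower in every oeSTUB1 library, while the IRS1 to IRS2 ratios overlapped.

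The ligands of these receptors were hardly detected. INS had 1 fragment in oeSTUB1 replicate 1 and 0 in the other 5 libraries, and INSRR, the insulin receptor-related receptor, had 0, 1 and 1 fragments in oeNC and 0 in all oeSTUB1 libraries. IGF1 had 2, 2 and 3 fragments in oeNC and 0, 1 and 5 in oeSTUB1. IGF2 was the one ligand over the filter, with 31, 21 and 29 fragments in oeNC and 30, 11 and 19 in oeSTUB1, or 0.115 ± 0.022 and 0.0887 ± 0.0409 FPKM (SD, n = 3 each), groups that overlapped (log2 fold change -0.21, adjusted p = 0.642, limma).

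Further genes of the pathway were taken from 6 lists with 121 genes, of which 109 were tested. In all, 5 rose and 10 fell at an adjusted p-value under 0.05, or 13.8%, a share close to the 13.6% of all genes. Of the other adaptors and receptor regulators 4 of 30 fell and 0 rose, with a list median of -0.03. GRB7, of the same family as GRB10 and GRB14, fell from 9.24 ± 0.420 to 4.33 ± 0.623 FPKM (SD, n = 3 each), a log2 fold change of -1.09 (adjusted p = 0.00125, limma). GAB2, a docking protein that binds PI3K and SHP2, fell from 2.73 ± 0.459 to 1.03 ± 0.352 FPKM (-1.36, adjusted p = 0.0119, limma). Without oeSTUB1 replicate 2, the lowest library for GAB2, its log2 fold change was -1.07 (adjusted p = 0.00242, limma). SH2B2, which binds the insulin receptor kinase, and DOK4, an IRS-related docking protein, fell by 0.86 and by 0.63 (log2; adjusted p = 0.0157 and 0.00793, limma). GRB7 in the oeNC libraries was 8.80, 9.29 and 9.64 FPKM and in the oeSTUB1 libraries 3.63, 4.82 and 4.55 FPKM, so each oeSTUB1 value was well below the lowest oeNC value, and replicate 2 was not the lowest.

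In the PI3K-AKT-mTOR arm 3 of 35 tested genes rose and 1 fell, with a median of 0.00. INPP4B, a lipid phosphatase that acts on a product of PI3K, rose from 0.658 ± 0.0514 to 2.03 ± 0.450 FPKM (SD, n = 3 each; log2 fold change 1.47, adjusted p = 0.00206, limma). MAPKAP1, a subunit of mTOR complex 2, and GSK3A, a kinase that AKT inhibits, rose by 0.40 and 0.31 on the log2 scale (adjusted p = 0.0338 and 0.0333, limma). RICTOR, the other defining subunit of mTOR complex 2, fell by 0.95 (adjusted p = 0.0328, limma), from 8.69, 9.12 and 10.6 FPKM to 5.85, 3.19 and 6.01 FPKM. Without oeSTUB1 replicate 2, which was the lowest for this long gene, its log2 fold change was -0.66 (adjusted p = 0.00264, limma). In the RAS-ERK arm 1 of 17 genes rose and 3 fell, with a median of -0.07. MAP2K1, the kinase that phosphorylates ERK, rose by 0.32 (adjusted p = 0.0328, limma). KSR1, a scaffold of the cascade, fell by 0.72 and MAPK3, which encodes ERK1, by 0.43 in log2 units (adjusted p = 0.00683 and 0.0277, limma). Their log2 fold changes without oeSTUB1 replicate 2 were -0.60 and -0.53 (adjusted p = 0.00136 and 0.000731, limma).

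FOXO transcription factors are held out of the nucleus when AKT is active, and 10 of their target genes were tested. PDK4, a kinase that inhibits pyruvate dehydrogenase, was 158, 161 and 217 FPKM in oeNC and 58.5, 52.2 and 75.3 FPKM in oeSTUB1. The groups were far apart, and PDK4 fell by 1.53 in log2 units (adjusted p = 0.00122, limma). SESN3, a stress-induced regulator of mTOR complex 1, fell by 0.97 (adjusted p = 0.0236, limma). Its log2 fold change was -0.71 without oeSTUB1 replicate 2 (adjusted p = 0.00299, limma). The other 8 target genes did not pass, and the list median was -0.20. Of 16 genes of mannose 6-phosphate sorting, the process that IGF2R serves, CTSD rose, from 148 ± 6.87 to 206 ± 25.3 FPKM (SD, n = 3 each; log2 fold change 0.47, adjusted p = 0.0265, limma), and the median of the list was 0.04. CTSD encodes the lysosomal protease cathepsin D. Without oeSTUB1 replicate 2 these lists gave more calls, with 10 genes higher and 3 lower in the PI3K-AKT-mTOR arm, 3 higher and 4 lower in the RAS-ERK arm, and 36 over all 6 lists in place of 15, while the share of all tested genes that passed rose from 13.6% to 26.8%.

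**Figure D5:**
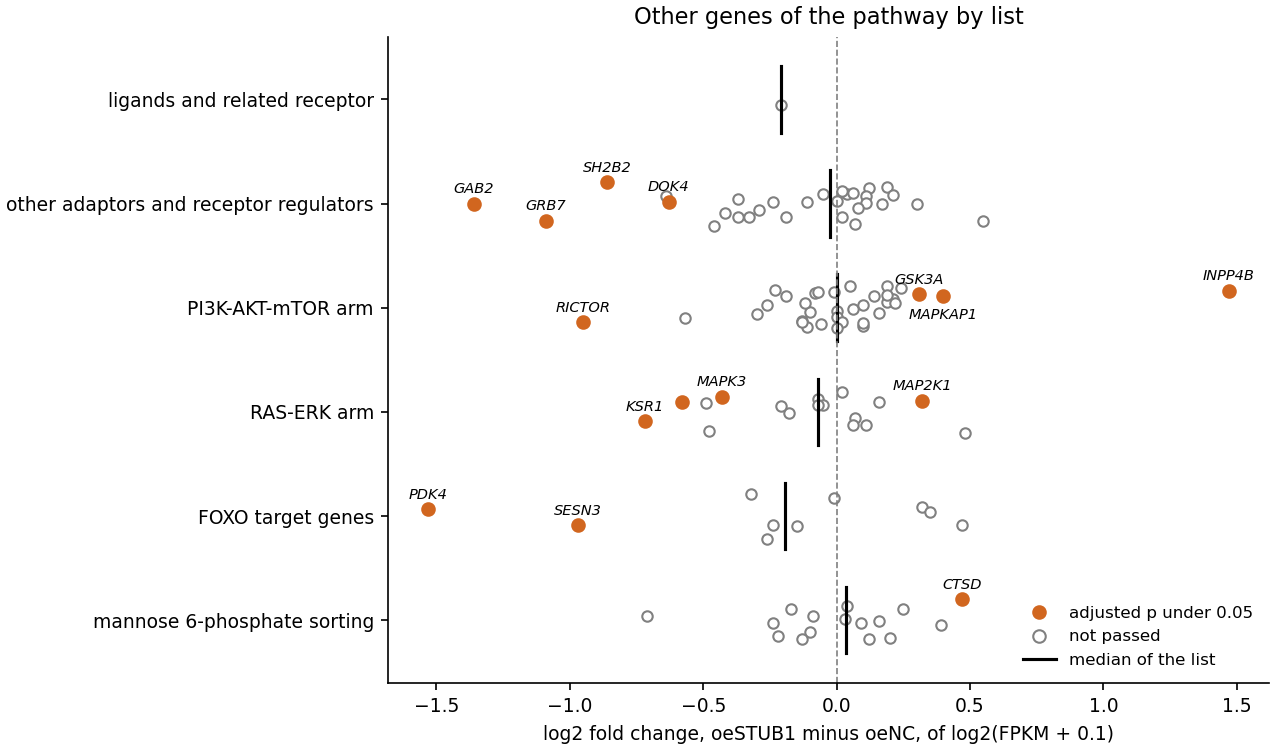
Log2 fold changes (horizontal axis, oeSTUB1 minus oeNC on the log2(FPKM + 0.1) scale) of the 109 tested genes in 6 pathway lists, with filled points for the 15 that passed the test (adjusted p-value under 0.05), names for those described in the text and a bar at the median of each list. The points are shifted vertically at random, the 4 named adaptors all lie below 0, and most genes of each list are open points around the median.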

How the data were processed

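RNA was sequenced from TFK1 cells, 3 oeNC and 3 oeSTUB1 libraries, whose groups and replicates follow the labels and the column names (0 columns belonged to no sample). The authors deposited FPKM values by gene symbol. The submitters' processing notes list fastp 0.20.1, HISAT2 2.1.0, HTSeq 0.11.2, R 3.2.0, DESeq2 1.22.2 and GRCh38.p13. The annotation and the strand setting are not given in the sources used here.

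Whole fragments were recovered from the FPKM steps for all 23569 genes, with recomputed values within 4.9e-06 of the deposited ones. The smallest possible gene length was used, so a gene's fragments may be understated by a shared factor. Depth was 33106564 to 36744521 fragments per library. The floor of 3 fragments was 0.00991 to 0.011 FPKM for IRS4 and is higher for shorter genes. Groups were compared with limma 3.58.1 in R 4.3.3 on log2(FPKM + 0.1), two-sided, using eBayes with an intensity trend, and p-values were Benjamini-Hochberg adjusted over the 15353 genes whose mean reached 0.1 FPKM. Genes are said to rise or fall at an adjusted p-value under 0.05. Fold changes on this scale understate those of low genes. Ratios within libraries were compared by exact permutation with scipy 1.17.1. Gene positions are those of GENCODE 29 on GRCh38, and promoters were taken from RefSeq. The recovery of fragments and the limma comparison were also run on simulated data. These held no library that differed by gene length, so they do not bear on the effect of oeSTUB1 replicate 2.

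The genes and lists were chosen with earlier results of these data known. Named were the 9 genes, STUB1, the ligands and, per list, up to 4 passing genes in each direction with the largest change and at least 1 FPKM in the higher group. Beside them, XIST and genes a check turned on (IRAIN, PYGO2 and single markers) were named. PYGO2, IRAIN and the neighbours of IRS4 were chosen after their values were seen. One passing gene of the lists is not reported here. Alternatives were other pseudocounts (1 and 0.01), filters, scalings and fits, each library left out, voom on the fragments, and a lowess correction for gene length (span 0.3), chosen after seeing the data.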

Additional observations from a re-analysis of the deposited data

How the results depend on the processing

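The number of these genes with an adjusted p-value under 0.05, 1 of 8, was 0 with a pseudocount of 0.01, with no filter, with a filter at a mean of 1 FPKM, with no trend in limma, and when an absolute log2 fold change over 1 was also required. It was 2 with median-ratio scaling and with quantile normalization, which added GRB14 (-0.29, adjusted p = 0.0468, and -0.30, adjusted p = 0.0346, limma), and 4 with the correction for gene length, which was chosen after seeing the data. Leaving out 1 library gave 0 to 4 such genes, the 4 without oeSTUB1 replicate 2. Of all tested genes 13.6% passed with all 6 libraries. That share was 26.8% without oeSTUB1 replicate 2 and 21.6% with the correction for gene length. Because the INSR groups did not overlap, leaving out a library or changing the pseudocount or filter could not turn its direction. INSR kept its direction in all 18 alternatives and lost the call in 9 of them. Its log2 fold change was -0.82 with a pseudocount of 0.01 (adjusted p = 0.053, limma), and -0.78 with no filter (0.1), with a filter at 1 FPKM (0.0519) and with no trend (0.0751). Its adjusted p-values over all alternatives ran from 0.00822 to 0.166, and without 1 library its log2 fold change ran from -0.92 to -0.53. The log2 fold change without 1 library ran from -0.53 to -0.20 for IGF1R, from -0.32 to -0.24 for GRB14, from 0.21 to 0.31 for SHC1 and from 0.10 to 0.29 for GRB10. It changed sign for IGF2R (-0.44 to 0.05), for IRS1 (-0.30 to 0.08) and for IRS2 (-0.25 to 0.02). With the correction for gene length IGF1R (-0.28), GRB14 (-0.30) and SHC1 (0.25) passed. Of the list genes 15 passed, 9 with no trend, 25 with the correction for gene length, and 6 to 36 without 1 library, 7 of them without oeNC replicate 1, 6 without oeNC replicate 2, 6 without oeNC replicate 3 and 36 without oeSTUB1 replicate 2. Genes held by 1 library numbered 25 with a share of 50% in place of 2. The cause of these shifts was not tested, beyond the fewer libraries in a fit that leaves one out.

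No source says that libraries with the same replicate number share a culture or batch. The correlations of deviations for numbers 1, 2 and 3 were -0.049, -0.052 and 0.062. With the replicate number as a block, 1 of the 8 genes passed, INSR (-0.78, adjusted p = 0.0477, limma), and 11 of the list genes did.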

Other observations

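The genes that lie beside IRS4 on chromosome X were read as well, and chosen after their values were seen. COL4A5 and COL4A6, which encode collagen IV chains of basement membranes, were higher in all 3 oeSTUB1 libraries. COL4A6 was 0.964, 0.989 and 0.969 FPKM in oeNC and 5.59, 4.13 and 6.43 FPKM in oeSTUB1, a log2 fold change of 2.33 (adjusted p = 0.000198, limma). COL4A5 was 3.48, 3.75 and 3.75 FPKM in oeNC and 9.94, 8.57 and 10.7 FPKM in oeSTUB1 (log2 fold change 1.38, adjusted p = 0.000281, limma). Replicate 1 of oeSTUB1 did not stand out for either gene, unlike for IRS4. On the far sides of these genes, NXT2 (0.24, adjusted p = 0.174), ATG4A (0.21, adjusted p = 0.199) and PSMD10 (0.19, adjusted p = 0.285) did not pass the limma test. VSIG1, a gene of gastric epithelium, had 8, 12 and 6 fragments in oeNC and 2, 3 and 1 fragments in oeSTUB1, under the filter for testing.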
